A study of Arabidopsis thaliana with 12 samples.

Results

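Roots of the Arabidopsis thaliana mutant dorn1-1 were compared with wild-type roots that had been given buffer and no ATP, on 3 dorn1-1 and 3 wild-type one-colour arrays out of 12 in the series. All 22746 probe sets other than the 64 array controls were compared. dorn1-1 has a mutation, induced with the mutagen EMS, in the lectin receptor kinase I.9 gene in the Col-0 background. The wild type was a Col-0 line expressing aequorin, a protein that emits light when it binds calcium. The labels name aequorin for the wild type only. Both genotypes were handled alike. A replicate pooled the roots of 120 seedlings at the age of 5 days, which stood overnight in the dark in 2 mM MES and 10 mM CaCl2, with harvest 30 min after the treatment. The other 6 arrays, 3 of dorn1-1 and 3 of the wild type, came from roots given ATP, for which the titles state 100 mM and the protocol 100 µM. They share no sample with the buffer arrays and show the same pair of genotypes after ATP. A genotype difference there also includes any difference in the response to ATP, so it is not a repeat of the buffer comparison.

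ATP that leaks or is secreted from plant cells acts as a signal outside the cell. DORN1 is a receptor of the plasma membrane that binds this ATP with its lectin-like outer domain, and its kinase domain starts a rise in cytosolic calcium and defence gene expression. Roots release ATP during growth, and the level outside the cell is kept low by apyrases and phosphatases. The buffer comparison addresses how the genotypes differed when no ATP had been added. A mutagenised line can carry other changes beside the known one, and the effect of the lesion cannot be told apart from theirs here. The transcript of the mutated gene was not analysed here.

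The dorn1-1 buffer arrays differed among themselves, and which of them lay furthest from the wild type changed with the measure. The mean log2 value of the 3 measured photosynthesis genes (RCA, LHCB4.1 and PRK), a marker of green shoot tissue, was 11.89, 9.09 and 10.44 in the dorn1-1 buffer replicates, against 10.54, 10.59 and 9.76 in the wild-type buffer replicates. The group means were 10.47 ± 1.40 in dorn1-1 and 10.3 ± 0.47 in the wild type (SD, n = 3 each), a difference of 0.18 (two-sided exact permutation p = 1, where 0.1 is the smallest p that 3 against 3 allows). The groups overlapped, and the spread within dorn1-1 exceeded the difference between genotypes. Of the other defining markers, the root-enriched PYK10, a beta-glucosidase of root ER bodies, was high on all 6 arrays, at 12.69, 12.71 and 12.53 in dorn1-1 and 12.81, 12.93 and 12.92 in the wild type. For PYK10 the 3 dorn1-1 arrays lay below the 3 wild-type arrays, as for 11.1% of all probe sets in buffer. Of the root hair genes, EXPA18 and EXPA7 were measured, with differences of -0.45 and -0.22 and overlapping groups. No measured gene stood for the endodermis, stele, root tip or root cap lists. The difference between 3′ and 5′ probe sets of the GAPDH control, a sign of RNA integrity, was -0.32, -0.57 and -0.90 in dorn1-1 and -0.25, -0.36 and -0.15 in the wild type on the log2 scale. For the actin control it was 3.64, 3.75 and 3.77 in dorn1-1 and 3.57, 3.34 and 3.72 in the wild type. The genotype difference of the means was -0.34 for GAPDH and 0.17 for actin, so the controls went opposite ways. These measures move with single arrays of the comparison, and their part in the results below was not tested. Counts of calls and several list medians are given with and without dorn1-1 buffer replicate 1. That is the array whose removal changed the number of buffer calls most.

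**Figure D1:**
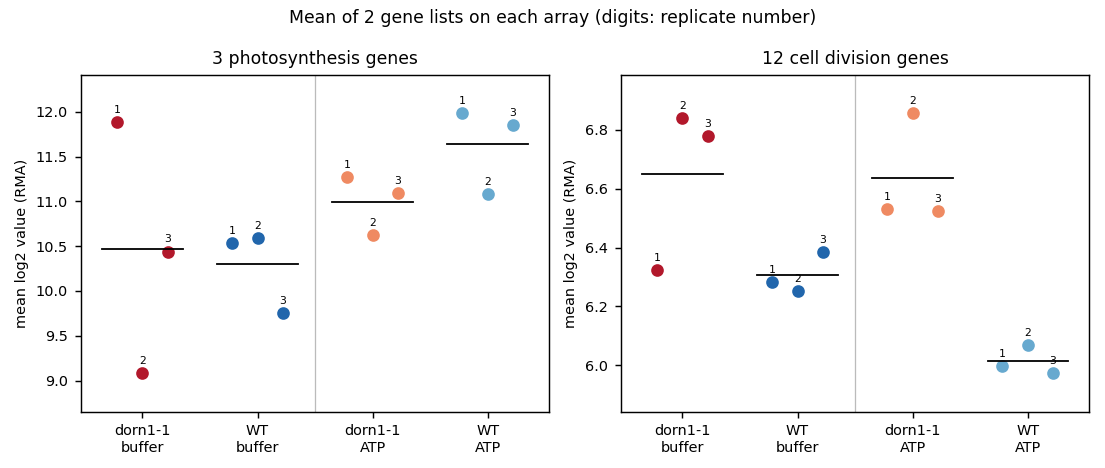
Mean log2 value on each array of 3 photosynthesis genes (left) and 12 cell division genes (right), by genotype and treatment. Each point is 1 array, the digit is its replicate number and the line is the group mean. Replicate 1 of dorn1-1 in buffer is the highest of its group for photosynthesis genes and the lowest of its group for cell division genes.

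Few transcripts passed the test between the genotypes in buffer. In limma with all 12 arrays, 6 probe sets were higher in dorn1-1 (0.0264% of 22746) and 9 were lower (0.0396%) at an adjusted p of 0.05, 15 in all (0.0659%). Of these, 12 carry exactly 1 gene name, 4 of them higher and 8 lower. On all 15 probe sets the 3 dorn1-1 buffer arrays lay entirely to one side of the 3 wild-type buffer arrays. Without regard to the test, 8.19% of all probe sets lay apart in this way with dorn1-1 higher and 11.1% with dorn1-1 lower. An unadjusted p below 0.05 was found for 2935 probe sets, against about 1137 that would be so by chance. The typical difference was small: the median over all probe sets was -0.01 on the log2 scale, with quartiles at -0.15 and 0.13. At least 2-fold differences of the means were found for 43 probe sets higher and 50 lower in dorn1-1.

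Among the 8 named lower genes, AT2G37870 had the difference furthest from 0. This gene, of the lipid transfer protein type, small secreted proteins that bind lipids, had log2 values of 5.99, 6.09 and 6.04 in dorn1-1, against 9.03, 9.21 and 8.34 in the wild type. The dorn1-1 arrays lay close together, far below the lowest wild-type array. The difference was -2.82 (SE 0.18, limma adjusted p = 6.08e-05), a 7.05-fold lower level in dorn1-1. AT2G41810, which encodes a cell wall protein of the DUF642 family, had 5.69, 5.91 and 6.17 in dorn1-1 and 8.55, 8.27 and 7.61 in the wild type. Its groups were also far apart, by -2.22 (SE 0.25, limma adjusted p = 0.00943). The neighbouring gene of the same family, AT2G41800, differed by -0.80 without passing (limma adjusted p = 0.159).

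A pair of pectin-related genes fell as well. Pectin is the gel-like polysaccharide of the primary wall, and its methyl esters are removed by pectin methylesterases before lyases and polygalacturonases cut the chain. AT1G05310, a pectin methylesterase gene, had 4.14, 4.12 and 4.20 in dorn1-1, against 5.28, 5.01 and 4.89 in the wild type. That is a difference of -0.91 (SE 0.12, limma adjusted p = 0.0266). AT2G43890, of the pectin lyase-like superfamily, had 2.96, 3.16 and 3.17 in dorn1-1 and 5.01, 5.08 and 4.27 in the wild type, which is -1.69 (SE 0.25, limma adjusted p = 0.0375). Its mean over the 12 arrays was at percentile 22.9 of all probe sets, where RMA compresses differences. These genes are not in the list of pectin-modifying enzymes, which matches by symbol: its 4 measured members of 33 had differences between -0.30 and -0.03, none called. PMEPCRF, another pectin methylesterase gene, had 6.99, 7.71 and 7.52 in dorn1-1 and 7.68, 7.74 and 7.71 in the wild type (-0.30, limma adjusted p = 0.461).

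The named lower genes also held OCT1 and AT2G16660, which both encode membrane transporters. OCT1 (AT1G73220), which carries carnitine and other organic cations and whose transcript is known to rise when phosphate is short, had 3.59, 3.84 and 3.70 in dorn1-1, against 6.21, 5.73 and 5.51 in the wild type. The difference was -2.11 (SE 0.27, limma adjusted p = 0.0189), with a wide gap between the groups. The other measured phosphate starvation gene, LPR1, a multicopper oxidase of the root tip response to phosphate, differed by 0.16 (SE 0.20) and its groups overlapped. With 2 of 34 list members measured, the list says little about phosphate status. AT2G16660, a nodulin-like member of the major facilitator superfamily, had 7.38, 7.26 and 7.08 in dorn1-1 and 8.56, 8.27 and 8.06 in the wild type (-1.06, SE 0.15, limma adjusted p = 0.0289).

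A pair of genes with C1 domains, cysteine- and histidine-rich zinc-binding domains, completed the named lower transcripts. AT2G02630 had 5.08, 5.05 and 5.18 in dorn1-1 and 6.12, 5.92 and 6.13 in the wild type, a difference of -0.95 (SE 0.11, limma adjusted p = 0.00943). AT2G02680 had 6.65, 7.07 and 6.95 in dorn1-1 and 7.89, 8.02 and 8.19 in the wild type, a difference of -1.14 (SE 0.18, limma adjusted p = 0.0474). Both lie within a short stretch of chromosome 2 and related genes can share probes. The measured genes between them, AT2G02640, AT2G02650, AT2G02660 and AT2G02670, had differences no further from 0 than -0.11. Their group means in buffer were only 2.09 to 2.89, where RMA compresses differences. These values therefore cannot show whether the stretch between the called genes differed.

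Of the higher transcripts, AT3G45820 had the largest difference. This gene, for which no function is stated here, had 6.38, 6.15 and 6.27 in dorn1-1, against 4.15, 4.03 and 3.66 in the wild type. Its log2 difference of 2.32 (SE 0.35, limma adjusted p = 0.0474) is a 4.98-fold higher level. AT5G52760, which encodes a protein with a heavy-metal-associated domain, had 5.92, 5.55 and 5.74 in dorn1-1 and 4.30, 4.0 and 4.29 in the wild type (1.54, SE 0.13, limma adjusted p = 0.000494). AT1G22330, which encodes an RNA-binding protein with an RNA recognition motif, had 5.91, 6.16 and 5.93 in dorn1-1 and 4.74, 5.05 and 4.61 in the wild type (1.20, SE 0.17, limma adjusted p = 0.0289). AT1G65370, of the TRAF-like family, had 7.59, 7.41 and 7.51 in dorn1-1 and 6.28, 6.21 and 6.47 in the wild type. This is a difference of 1.19 (SE 0.14, limma adjusted p = 0.00952). In each of these 4 genes the lowest dorn1-1 array was above the highest wild-type array.

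**Figure D2:**
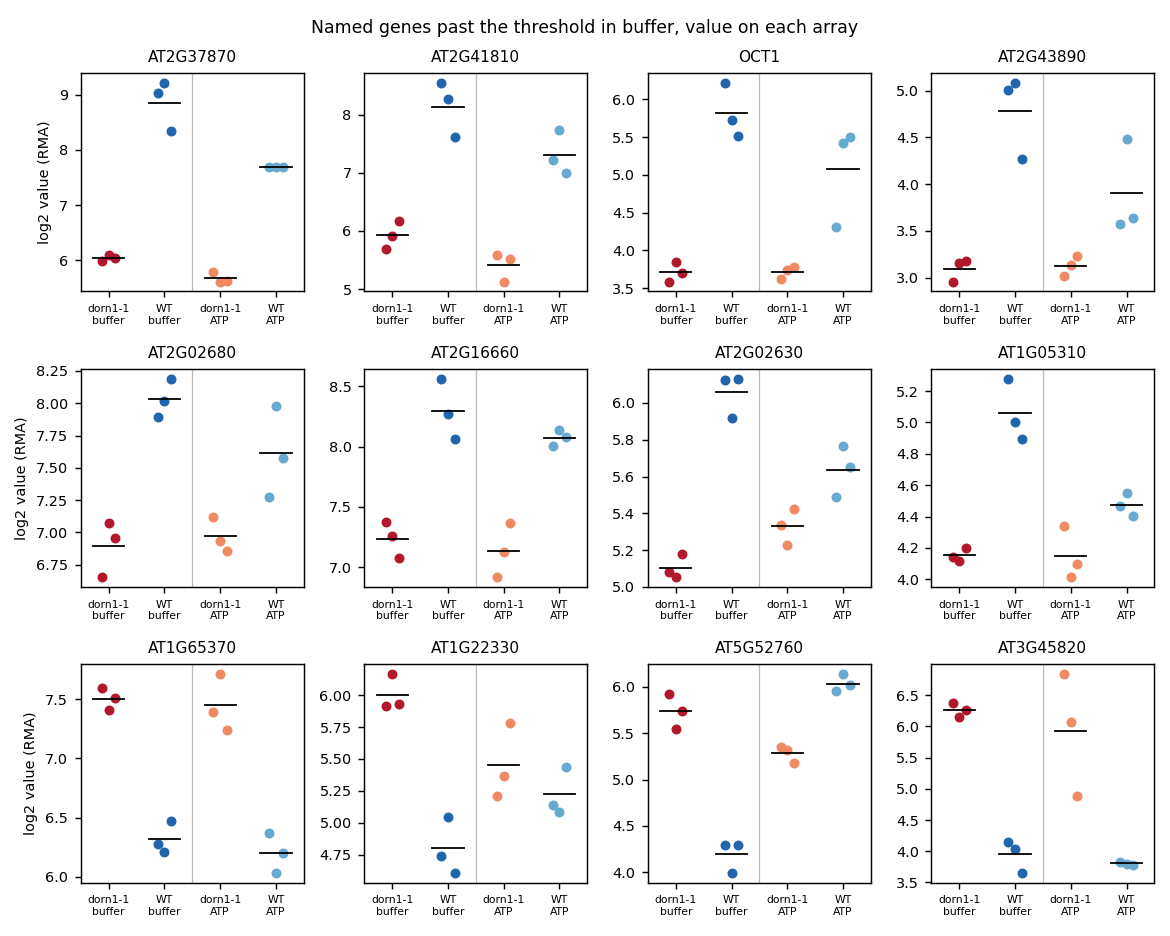
Log2 RMA value on each array of the 12 named genes past the threshold in buffer, each panel with its own scale, for dorn1-1 and the wild type (WT) in buffer and in ATP. Points are arrays and lines are group means. In buffer the genotypes lie apart in every panel, and in ATP AT1G22330 overlaps and AT5G52760 is lower in dorn1-1.

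The ATP arrays showed the same genotypes after ATP, where the genotype difference also includes any difference in the response to ATP. There 1065 probe sets were higher in dorn1-1 (4.68%) and 454 were lower (2.00%) in the same limma fit, 1519 in all (6.68%). All 9 probe sets lower in buffer were also lower on all 3 dorn1-1 ATP arrays than on any wild-type ATP array, and 4 of them passed there. For comparison, 9.89% of all probe sets lay apart in that way in ATP. Of the 6 higher in buffer, 4 lay apart in the same direction in ATP, where 17.1% of all probe sets did, and 3 passed. The fit took the spread of each probe set from the buffer and ATP arrays together. Buffer calls were thus partly selected for low spread in ATP, which by itself makes groups apart there more likely. The percentages of all probe sets are therefore not a matched comparison for the calls. AT2G37870 had 5.79, 5.61 and 5.63 in dorn1-1 with ATP and 7.68, 7.68 and 7.68 in the wild type with ATP (-2.01, SE 0.18, limma adjusted p = 0.000886). AT3G45820 spread widely in dorn1-1 with ATP, at 6.83, 6.08 and 4.88, against 3.84, 3.80 and 3.79 in the wild type with ATP (2.12, SE 0.35, limma adjusted p = 0.00811). AT1G65370 differed by 1.25 in ATP (SE 0.14, limma adjusted p = 0.00366) and 1.19 in buffer.

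The sizes of the lower calls were closer to 0 in ATP. The median difference of the 9 was -1.35 in buffer and -0.77 in ATP. For AT2G02630 the difference was -0.95 in buffer and -0.31 in ATP (limma adjusted p = 0.125), and for AT1G05310 it was -0.91 in buffer and -0.32 in ATP (limma adjusted p = 0.147). The test of the difference itself, buffer minus ATP, gave an unadjusted p below 0.05 for 8 of the 15 probe sets. Only AT5G52760 of the 15 passed after adjustment in limma, where 2 probe sets in all did (0.00879%). The 15 probe sets were chosen on the buffer arrays, so their buffer sizes are the selected ones.

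AT5G52760 was the 1 called gene with opposite directions. With ATP it had 5.35, 5.31 and 5.17 in dorn1-1, against 5.96, 6.14 and 6.02 in the wild type, a difference of -0.75 (SE 0.13, limma adjusted p = 0.00811). Its difference in buffer minus that in ATP was 2.30 (SE 0.18, limma adjusted p = 0.000556). In both treatments the genotypes did not overlap. The wild-type arrays in buffer, at 4.0 to 4.30, were the lowest of the 4 groups, and the wild-type arrays in ATP were the highest. AT1G22330 had 5.21, 5.37 and 5.79 in dorn1-1 with ATP and 5.14, 5.08 and 5.44 in the wild type with ATP, where the groups overlapped (0.23, SE 0.17, limma adjusted p = 0.473). Its difference in buffer minus that in ATP was 0.97 and did not pass (limma adjusted p = 0.617).

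**Figure D3:**
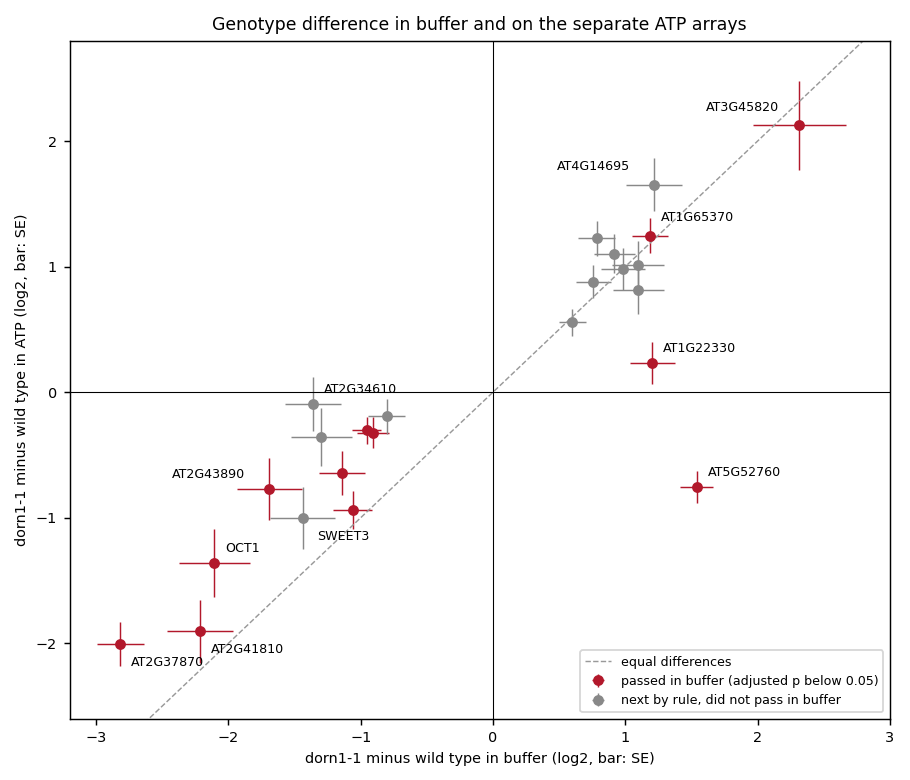
Genotype difference in buffer (horizontal) and in ATP (vertical) on the log2 scale with SE bars, for the 12 named genes that passed in buffer (red) and the 12 next by unadjusted p that did not (grey). All genes except AT5G52760 have the same sign in both treatments, and all of the lower genes lie above the dashed line of equal differences.

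Across all probe sets the buffer and ATP differences correlated with r = 0.43 (rho = 0.40), a description over 22746 probe sets that are not independent of each other. Of the 1863 probe sets whose buffer groups did not overlap with dorn1-1 higher, 997 were also apart and higher in ATP, which is 53.5% of them and 25.6% of the 3896 in ATP. Of the 2525 apart and lower in buffer, 488 were apart and lower in ATP, which is 19.3% of them and 21.7% of the 2250 in ATP. Opposite and apart in ATP were 23 of the higher and 53 of the lower ones.

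The genes next in rank, which did not pass (limma adjusted p between 0.0533 and 0.0716), filled each direction up to 12 genes, which leaves 8 places on the higher and 4 on the lower side. All 8 of the higher ones passed in the ATP comparison with the same direction, where 4.68% of all probe sets did. Their rank in buffer also rests on a spread shared with the ATP arrays, so that percentage is not a matched comparison. AT4G14695, a mitochondrial pyruvate carrier gene, had 4.77, 5.69 and 5.34 in dorn1-1 and 3.80, 4.17 and 4.16 in the wild type. The difference was 1.22 in buffer (limma adjusted p = 0.0716) and 1.65 in ATP (limma adjusted p = 0.00417). AT4G01390, like AT1G65370 a TRAF-like gene, had 6.35, 5.94 and 6.44 in dorn1-1 and 5.22, 5.15 and 5.41 in the wild type, with a difference of 0.98 in buffer and 0.98 in ATP. AT5G47600, of the small heat shock protein type, AT5G22580, with a stress-responsive A/B barrel domain, and AT3G55605, of a mitochondrial glycoprotein family, had buffer differences of 0.92, 1.10 and 0.76. The remaining 3, AT1G65900, AT2G42110 and AT3G61100, had 1.10, 0.78 and 0.60.

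Of the 4 lower genes of the same rank, only SWEET3 (AT5G53190) also passed in ATP, where 2.00% of all probe sets passed as lower. SWEET proteins are sugar carriers that let sugars cross membranes down their gradient. SWEET3 had 5.63, 6.64 and 6.46 in dorn1-1, against 7.63, 7.91 and 7.50 in the wild type (-1.44, SE 0.24, limma adjusted p = 0.0716). In ATP it differed by -1.0 (limma adjusted p = 0.0321). AT2G34610 had 4.09, 4.44 and 4.09 in dorn1-1 and 5.25, 5.76 and 5.70 in the wild type, and in ATP it had 4.13, 4.23 and 4.33 in dorn1-1 and 3.94, 4.85 and 4.18 in the wild type. It was apart in buffer (-1.36) and overlapped in ATP (-0.09), and the difference between the treatments did not pass (limma adjusted p = 0.576). AT1G18290 and AT4G19160 had -1.30 and -0.80 in buffer and -0.36 and -0.19 in ATP.

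Gene lists were described by counts and medians beside the median of all probe sets, -0.01, of which 47.2% had a higher mean in dorn1-1. Lists match few named probe sets, so each count covers the measured members only. None of the 193 measured genes in the 19 lists with at least 3 measured members passed in buffer in limma. An unadjusted p below 0.05 was found for 38 of them, beside 2935 of all 22746 probe sets. Some of these lists were chosen after values had been seen. All 12 measured cell division genes of 48 had a higher mean in dorn1-1 in buffer, with a median difference of 0.36. For 6 of them the groups did not overlap, where 8.19% of all probe sets were apart and higher. In ATP the median was 0.67, 10 were apart (17.1% of all probe sets) and 7 passed (4.68%). This list was chosen after values had been seen.

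ASF1B, a histone chaperone used in DNA replication, had 7.53, 7.78 and 7.98 in dorn1-1 in buffer, against 7.17, 7.22 and 7.29 in the wild type (0.54, SE 0.12, limma adjusted p = 0.115). AUR1, a mitotic kinase of the Aurora family, had 7.53, 8.35 and 8.17 in dorn1-1 and 7.26, 7.34 and 7.44 in the wild type (0.67, SE 0.18, limma adjusted p = 0.173). In both genes replicate 1 was the dorn1-1 array closest to the wild type. In ATP their differences were 0.69 and 0.84 and both passed (limma adjusted p = 0.00813 and 0.0182). The mean of the 12 genes was 6.33, 6.84 and 6.78 on the dorn1-1 buffer arrays, against 6.28, 6.25 and 6.38 on the wild-type buffer arrays. It was 6.53, 6.85 and 6.52 in dorn1-1 with ATP and 6.0, 6.07 and 5.98 in the wild type with ATP. Without dorn1-1 buffer replicate 1 the median buffer difference of the list was 0.54, and without replicate 2 it was 0.24. Replicate 1, the lowest for cell division genes in its group, was the highest for photosynthesis genes, and the part of shoot tissue in this was not tested. No root tip meristem marker was measured, so the share of dividing tissue in the harvested roots and the level per cell cannot be told apart.

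Ribosome biogenesis genes had the same direction of means. Of 8 measured genes of 18, 7 had a higher mean in dorn1-1 in buffer, the median difference was 0.36 and 2 had groups apart (8.19% of all probe sets). The list mean was 8.61, 9.06 and 9.02 in dorn1-1 and 8.65, 8.49 and 8.60 in the wild type, so replicate 1 of dorn1-1 lay among the wild-type arrays. The median was 0.55 without that array and 0.21 without replicate 2. In ATP all 8 were higher in the mean, the median was 0.61 and 3 passed (4.68% of all probe sets). AT1G52930, which encodes a Brix-domain protein of large ribosomal subunit assembly, had 8.99, 9.35 and 9.32 in dorn1-1 and 8.61, 8.64 and 8.71 in the wild type (0.56, SE 0.12, limma adjusted p = 0.115). AT3G15460, a gene of the same kind, had 7.34, 7.94 and 7.62 in dorn1-1 and 6.93, 6.96 and 7.21 in the wild type (0.60, SE 0.17, limma adjusted p = 0.19). Of 8 measured RNA polymerase II subunit genes, 7 were higher in the mean (median 0.23), and 2 passed in ATP (4.68% of all probe sets), NRPB9B and NRPB12, for which the ATP differences were 0.72 and 0.70. NRPB7, a subunit of the stalk of the enzyme, had a buffer difference of 0.37 (limma adjusted p = 0.368). Both of these lists were chosen after values had been seen.

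Genes of aliphatic glucosinolate synthesis, which makes methionine-derived defence compounds of the cabbage family, were few on the named probe sets. All 3 measured of 25 had a higher mean in dorn1-1 in buffer. BCAT4 (AT3G19710), the aminotransferase of the first step of methionine chain elongation, had 10.72, 10.28 and 10.59 in dorn1-1 and 9.26, 9.20 and 9.95 in the wild type (1.06, SE 0.23, limma adjusted p = 0.116). AT2G31790, a glucosyltransferase gene of the pathway, had 7.44, 7.31 and 7.42 in dorn1-1 and 6.77, 6.71 and 7.0 in the wild type (0.56, SE 0.10, limma adjusted p = 0.076). Neither pair of groups overlapped, where 8.19% of all probe sets were apart and higher in buffer. Both genes passed in ATP, with differences of 0.87 and 0.44 (limma adjusted p = 0.0459 and 0.0268). Of all probe sets, 4.68% passed in ATP as higher. This list too was chosen after values had been seen.

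Sugar transport genes were split in direction. Among 19 measured SWEET, sugar porter and wall invertase genes, 9 were higher and 10 were lower in the mean in dorn1-1, with 1 apart and higher and 5 apart and lower, where 8.19% and 11.1% of all probe sets were. The median was -0.003 over all 19, ran from -0.061 to 0.029 with 1 buffer array left out and was -0.31 over those kept by the filter on dim probe sets. SWEET11 (AT3G48740), a sucrose carrier of the phloem, had 10.95, 10.07 and 10.59 in dorn1-1 and 11.69, 11.78 and 11.37 in the wild type (-1.08, SE 0.35, limma adjusted p = 0.247). SWEET11 passed in ATP, with a difference of -1.36 (limma adjusted p = 0.0385). SFP1, of the sugar porter family, had a buffer difference of -0.59 and SWEET17, a fructose carrier of the vacuole, had -0.31. ICL (AT3G21720), isocitrate lyase of the glyoxylate cycle, had 9.47, 9.37 and 9.56 in dorn1-1 and 10.38, 9.87 and 10.65 in the wild type (-0.83, SE 0.21, limma adjusted p = 0.169). It passed in ATP with -0.89 (limma adjusted p = 0.0291). AIM1, a gene of fatty acid beta-oxidation, had a buffer difference of -0.06.

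Wall-loosening proteins were also mixed. Expansins loosen the bonds between wall polymers, and xyloglucan endotransglucosylases cut and rejoin xyloglucan chains. Of 18 measured expansins, 5 were apart and lower in dorn1-1 (11.1% of all probe sets) and none was apart and higher. Their median was -0.14, and between -0.10 and -0.067 with any 1 buffer array left out. EXPA9 had 7.12, 6.87 and 7.61 in dorn1-1 and 8.12, 7.96 and 7.82 in the wild type (-0.76, SE 0.19, limma adjusted p = 0.159). EXLA3 and EXLA1, expansin-like genes side by side on chromosome 3, had differences of -0.93 and -0.70 in buffer, and both passed in ATP with -0.97 and -1.15. EXPB1 had 4.98, 6.48 and 5.99 in dorn1-1 and 4.60, 5.00 and 5.11 in the wild type, so that replicate 1 lay among the wild-type arrays (0.91, limma adjusted p = 0.285). Without that array it passed, at 1.33 (limma adjusted p = 0.0275). XTH16 had 8.42, 7.93 and 7.19 in dorn1-1 and 6.42, 6.55 and 6.04 in the wild type (1.51, SE 0.30, limma adjusted p = 0.108). Its ATP difference was 0.38 with overlapping groups. Of the 9 measured xyloglucan genes it was the only one whose groups were apart in buffer. Of all probe sets, 8.19% were apart and higher in buffer and 11.1% apart and lower.

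The glycosyltransferases of small molecules tended to lower means in dorn1-1. Of 43 measured UDP-glycosyltransferases, 34 had a lower mean, 10 were apart and lower and none was apart and higher, against 11.1% and 8.19% of all probe sets, with a median of -0.15. In ATP 30 had a lower mean, with 7 apart and lower (9.89% of all probe sets) and 3 apart and higher (17.1%). UGT73B1, which can glycosylate flavonoids, had 7.53, 7.19 and 7.34 in dorn1-1 and 8.11, 7.95 and 8.03 in the wild type (-0.68, SE 0.15, limma adjusted p = 0.115), and it passed in ATP with -0.59. UGT73C1 went the other way on 1 array, at 5.95, 3.82 and 3.65 in dorn1-1 and 3.38, 3.94 and 3.34 in the wild type. Cytochromes P450 had a median of -0.04 over 18 genes, which ran from -0.074 to 0.019 with 1 buffer array left out and was -0.32 over those kept by the filter on dim probe sets, with CYP71B28 apart and lower (-0.59, SE 0.12, limma adjusted p = 0.103). Glutathione transferases had a median of 0.05 over 12 genes, which ran from -0.081 to 0.13 with 1 buffer array left out. None was apart in buffer and 6 were apart and higher in ATP, where 8.19% and 17.1% of all probe sets were apart and higher. The difference between the treatments was not tested for the list.

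The measured lectins and WRKY transcription factors had lower means in buffer. The 5 measured lectins of 52 all had a lower mean in dorn1-1 (median -0.43), with 3 apart, where 11.1% of all probe sets were apart and lower. Without dorn1-1 buffer replicate 1 the median was -0.26. None of the 5 is a lectin receptor kinase. JAL22, a jacalin-related lectin, had 10.82, 10.83 and 10.80 in dorn1-1, against 11.11, 11.59 and 11.60 in the wild type (-0.62, SE 0.21, limma adjusted p = 0.28). JAL34 had 12.47, 12.78 and 12.67 in dorn1-1 and 12.98, 12.98 and 12.98 in the wild type (-0.34, limma adjusted p = 0.22). In ATP these lectins had differences between -0.24 and 0.22, none apart. Of all probe sets, 9.89% were apart and lower in ATP and 17.1% apart and higher. All 7 measured WRKY transcription factors of 72 had lower means in buffer (median -0.26), 3 of them apart (11.1% of all probe sets). WRKY47 had the lowest p (-0.51, limma adjusted p = 0.215), and 4 of the 7 had lower means in ATP.

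Among 6 immune receptor and early immune genes, 5 had lower means in buffer (median -0.19). The median ran from -0.40 without dorn1-1 buffer replicate 1 to -0.12 without dorn1-1 buffer replicate 2. In buffer 1 gene was apart and lower, where 11.1% of all probe sets were. This was PUB23, a ubiquitin ligase that dampens immune signalling. It had 8.35, 8.78 and 8.72 in dorn1-1 and 9.40, 9.07 and 9.01 in the wild type (-0.54, SE 0.17, limma adjusted p = 0.245). In ATP all 6 were lower in the mean (median -0.63) and 3 passed, where 2.00% of all probe sets did. The 7 measured calmodulin-like genes had a median of 0.01 in buffer with none apart (-0.19 without dorn1-1 buffer replicate 1), and CML37 was the furthest from 0 (-0.31, limma adjusted p = 0.443). Of all probe sets, 8.19% were apart and higher in buffer and 11.1% apart and lower. The apyrase family gene AT1G14240, of the enzymes that break down nucleotides, had 5.70, 6.04 and 5.89 in dorn1-1 and 6.34, 6.30 and 6.61 in the wild type (-0.54, SE 0.15, limma adjusted p = 0.193). In ATP the same gene differed by -0.04. Auxin-responsive genes (7 measured) had a median of -0.06, which ran from -0.099 to 0.087 with 1 buffer array left out and was 0.087 without dorn1-1 buffer replicate 1. Iron deficiency genes (3 measured) had a median of 0.02, which was 0.25 without wild-type buffer replicate 1, -0.21 without wild-type buffer replicate 3 and -0.12 without dorn1-1 buffer replicate 1.

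**Figure D4:**
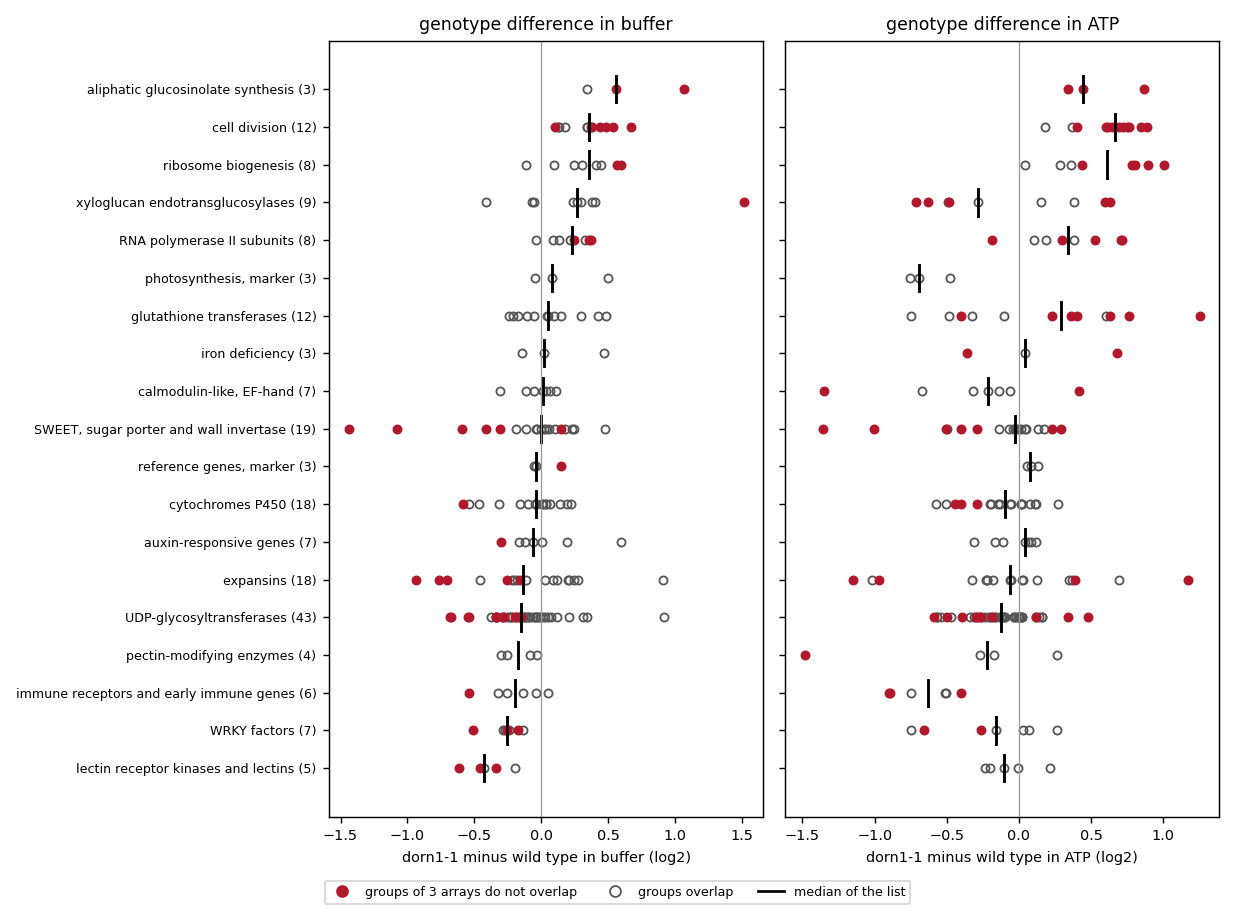
Genotype difference (dorn1-1 minus wild type, log2) of each measured member of 19 gene lists in buffer (left) and in ATP (right), ordered by the buffer median. Filled red points are genes whose 3 dorn1-1 arrays do not overlap the 3 wild-type arrays, open points overlap, black bars are list medians and the number measured is in parentheses. All 12 cell division genes lie to the right of 0 in both panels.

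By position, 6 of the 12 named calls are on chromosome 2, and all 6 were lower. That chromosome holds 16.4% of the 13436 probe sets placed by the gene table, and 10.7% of its probe sets were apart and lower in dorn1-1, against 10.4% over the genome. The nearest 3 measured genes on each side of the called genes, 70 in all, held no call in limma. Of these, 9 had an unadjusted p below 0.05, beside 2935 of all 22746 probe sets. Among them 10 were apart and lower and 4 were apart and higher, 20.0% together, beside 11.1% lower and 8.19% higher of all probe sets, with a median difference of -0.01. AT5G52750, next to AT5G52760, differed by 1.03 in buffer with overlapping groups (limma adjusted p = 0.354) and by -0.92 in ATP with groups apart. AT2G02620, next to AT2G02630, was apart and lower in buffer (-0.49, limma adjusted p = 0.304). Over all neighbours the differences ran from -0.80 (AT2G41800) to 1.40 (AT1G65490), and related genes that lie side by side can share probes.

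The number of calls depended on 1 array. Without dorn1-1 buffer replicate 1, 246 probe sets were higher and 69 lower in limma, including all 15 of the full fit. Of the 246, 230 (93.5%) were also apart and higher on the ATP arrays, which that array did not enter, and 157 passed there. Of all probe sets, 17.1% were apart and higher in ATP and 4.68% passed there as higher. Of the 69, 42 (60.9%) were apart and lower in ATP and 13 passed there. Of all probe sets, 9.89% were apart and lower in ATP and 2.00% passed there as lower. The ATP arrays entered the estimate of spread behind these calls, so the ATP results of the calls are not independent of their selection. For these calls the percentages of all probe sets are thus not a matched comparison. The higher ones had a median difference of 0.78 in buffer and 0.77 in ATP, and the lower ones had -1.0 in buffer and -0.55 in ATP. List members that passed in buffer without dorn1-1 buffer replicate 1 were ASF1B, AUR1, AT1G52930 and EXPB1, higher, and OCT1, SWEET3, UGT73B1 and CYP71B28, lower. Leaving out either other dorn1-1 buffer array, or either of the first 2 wild-type ones, left 1 or 2 higher and 1 to 3 lower.

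With 1 array left out at a time, 12 fits in all, AT2G37870 and AT5G52760 always passed. In a fit of only the 6 buffer arrays neither did (limma adjusted p = 0.0517 and 0.0588). AT2G41810 and AT2G02630 passed in 10 of the 12, and the other 8 named genes in 3 to 9. None changed sign. The highest adjusted p among these fits was 0.211, for AT2G02680 without wild-type buffer replicate 2. The difference of AT2G37870 stayed between -3.08 and -2.64, and that of AT5G52760 between 1.44 and 1.63.

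**Figure D5:**
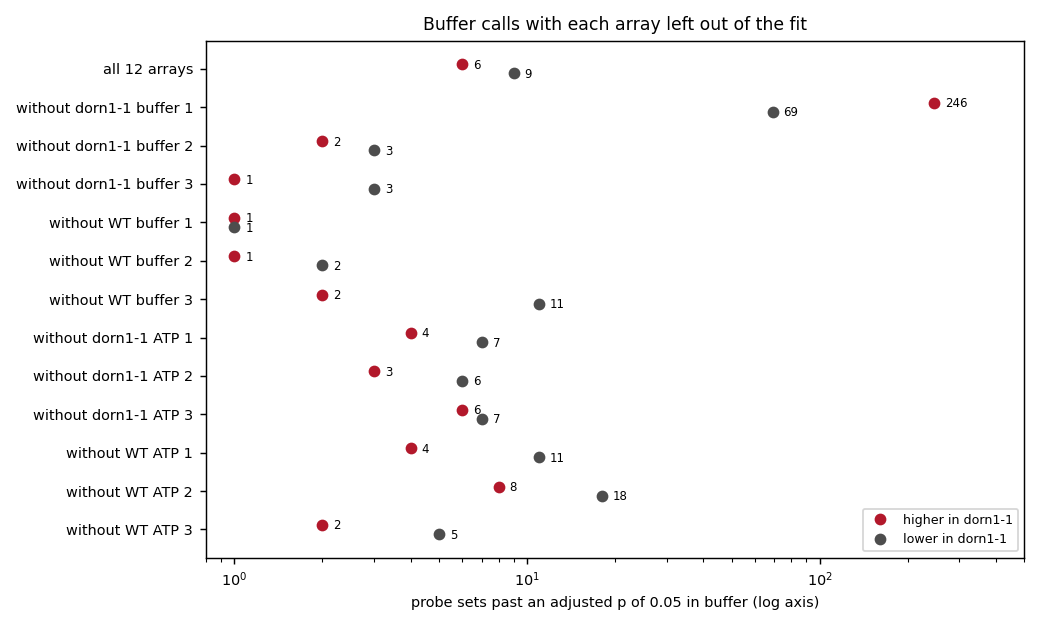
Number of probe sets past an adjusted p of 0.05 in buffer, on a log axis, higher (red) and lower (grey) in dorn1-1, with all 12 arrays and with each array left out in turn. Leaving out dorn1-1 buffer replicate 1 gives 246 and 69, against 6 and 9 with all arrays.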

How the data were processed

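Biotin-labelled cRNA from root total RNA was measured on one-colour arrays. Per the labels and the submitters' processing notes, the authors made the deposited log2 values (a single value for each array and probe set) by RMA with affy. The sources used here give neither the versions nor whether all 12 arrays entered RMA together. RMA aligns the distributions of arrays, which hides a shift common to most transcripts, and it shrinks differences close to background. The median log2 value per array was 6.07 to 6.17. The labels call the replicates biological.

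The deposited values were fitted with limma 3.58.1 in R 4.3.3 (1 mean per group, all 12 arrays, no trend, not robust), with Benjamini-Hochberg adjustment over 22746 probe sets at 0.05, for 3 contrasts: dorn1-1 minus wild type in buffer, the same in ATP, and the difference of these. Values per array were compared with exact permutation tests. Fold changes are 2 to the power of the log2 difference. Figures used matplotlib 3.10.9 in Python 3.11.15. The fit was tested on simulated data.

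Of the probe sets, 14016 are in the platform annotation, where 13513 have a single gene and 503 several genes. The other 8730 stay unnamed here. Of those with a single gene, 13436 matched the RefSeq gene table (TAIR10.1), used for names, chromosomes and neighbours. Named genes were all probe sets with 1 gene past the threshold, those of lowest unadjusted p with groups apart up to 12 in each direction, and the 2 of lowest p in each list with at least 3 measured members. Other list members and neighbours named in the text were chosen after their values were seen. The members and lists were chosen with earlier results of these data known, and lists of cell division, ribosome biogenesis, RNA polymerase II, glucosinolate, sugar transport, and fatty acid breakdown genes after values were seen.

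Replicate numbers occur in all groups, but nothing in the labels says that a number is shared, so the fit has no block. Same-numbered buffer arrays did not all deviate together, whereas the correlations of same-numbered ATP arrays were all positive. The alternatives tried were cyclic loess, quantile and median scaling, a filter on dim probe sets at percentile 40, trend and robust moderation, array weights, a replicate block, only the 2 groups compared, a 2-fold minimum, no probe sets shared by genes, the photosynthesis mean as a covariate, and leaving out each array. The same alternatives for the difference of the differences, and for list medians, were chosen after seeing the data.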

Additional observations from a re-analysis of the deposited data

Results flagged for a closer look

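AT5G52760 had a genotype difference (dorn1-1 minus wild type) of 1.54 in buffer and -0.75 in ATP. The difference between these passed its own test over all probe sets (2.30, limma adjusted p = 0.000556).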

How the results depend on the processing

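In limma the buffer comparison gave 6 probe sets higher and 9 lower in dorn1-1, ATP 1519, and the difference of the differences 2. The counts of higher and lower were 12 and 16 after cyclic loess, 3 and 5 with the filter on dim probe sets, 1603 and 965 with array weights, 214 and 92 with the photosynthesis covariate, and 1 and 0 with only the 2 groups compared. Beside that 0, 1431 lower probe sets had an unadjusted p below 0.05 in limma. Trend and robust moderation gave 15 lower. The filter on dim probe sets, at percentile 40, took out the named calls AT2G43890, AT1G05310, OCT1, AT3G45820 and AT5G52760. Their means over the 12 arrays were at percentiles 22.9, 31.0, 32.4, 36.3 and 39.9. Scaling by quantiles or medians kept both counts within 1.5 times the main ones, as did leaving out probe sets shared by genes and a 2-fold minimum. ATP had 3067 with array weights and 236 with a 2-fold minimum. The difference of the differences had 1 with the dim filter, 6 with array weights and 4 with the covariate. Leaving out each array gave 1 to 246 higher, 1 to 69 lower, 272 to 2643 in ATP and 1 to 3 for the difference of the differences. Where a group keeps 2 arrays, its spread is shared with the other groups. Except for fewer arrays or probe sets, the cause was not tested.

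With the replicate block 10 probe sets were higher, 14 lower and 1 passed for the difference of the differences. Same-numbered buffer arrays had correlations of deviations of 0.131, -0.181 and 0.199, and differently numbered ones -0.302 to 0.268. Same-numbered ATP arrays had 0.281, 0.232 and 0.028, all positive, and differently numbered ones -0.352 to 0.137. The numbers were not taken to pair the samples, as the labels do not say so, but a shared batch cannot be told from these values.

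The photosynthesis difference of 0.18 in buffer ranged from -0.53 (without dorn1-1 buffer replicate 1) to 0.87 over fits without 1 array, and was -0.093 without wild-type buffer replicate 3. RCA was -0.095 with array weights, -0.080 with the covariate, and -0.53 to 0.73 over fits without 1 array, PRK -0.30 to 1.19, AT4G02300 -0.18 to 0.013, and AT4G34270 was 0.039 with array weights. Of the other alternatives for single genes, 1225 kept direction and call, 84 gained and 71 lost the call. The covariate was left out for the photosynthesis mean itself. Without a detection call for the probe sets, dim ones could not be set aside as undetected.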
